A study of Mus musculus with 12 samples.

Results

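The 10 tubulin genes described here are the alpha-tubulin genes Tuba1a, Tuba1b and Tuba1c, the beta-tubulin genes Tubb2a, Tubb2b, Tubb3, Tubb4b, Tubb5 and Tubb6, and the gamma-tubulin gene Tubg1. They were chosen by name, and their rows were found by Ensembl gene ID among the 55416 gene rows of each count table. All 10 passed the filter on low counts. The cells belonged to the E14Tg2a.4 line of mouse embryonic stem cells and carried Rpl31, a protein of the large ribosomal subunit, with a FLAG, TEV and Avi tag (Rpl31-FTA), in all 4 groups. Ribosomes next to the endoplasmic reticulum (ER) were biotinylated by ALIBi, a proximity-labelling system, and pulled down from lysates made with cycloheximide. The mRNA bound to them (ER-bound RNA) was sequenced beside whole-cell RNA kept from those lysates. Cells had been given either a scramble siRNA as control or one that targets Lsg1, which encodes a GTPase needed for the last steps of large-subunit maturation in the cytoplasm. The 4 groups, each with 3 libraries labelled as biological replicates, crossed the fraction (whole-cell or ER-bound) with the siRNA (scramble or Lsg1). All come from 1 tagged cell line, and libraries from ribosomes labelled elsewhere in the cell were not analysed here.

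Alpha- and beta-tubulin form the heterodimers that polymerize into microtubules, and gamma-tubulin nucleates them. Tubulins carry no signal sequence and are made on free ribosomes in the cytosol, after which prefoldin, the chaperonin CCT and the tubulin cofactors fold and assemble them. When soluble tubulin is in excess, the factor TTC5 recognizes the first residues of nascent alpha- and beta-tubulin on the ribosome and, with SCAPER and the CCR4-NOT deadenylase, has the mRNA degraded, a feedback called tubulin autoregulation.

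Because that feedback reads the start of the coding sequence, and because near-identical sequence bears on how reads are assigned, the first 30 coding bases of 9 of the tubulin genes are shown. Capitals mark the first 4 codons. The sequences are the sense strand of GENCODE M21 transcripts on GRCm38, which is not the GRCm39 build of the count tables, so only the chromosome is given.
Tuba1a (chromosome 15): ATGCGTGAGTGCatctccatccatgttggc
Tuba1b (chromosome 15): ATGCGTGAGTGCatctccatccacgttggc
Tuba1c (chromosome 15): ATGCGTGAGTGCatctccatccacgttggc
Tubb2a (chromosome 13): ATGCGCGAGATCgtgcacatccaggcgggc
Tubb2b (chromosome 13): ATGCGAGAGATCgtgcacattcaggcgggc
Tubb3 (chromosome 8): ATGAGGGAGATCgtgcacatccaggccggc
Tubb4b (chromosome 2): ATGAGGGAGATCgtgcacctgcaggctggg
Tubb5 (chromosome 17): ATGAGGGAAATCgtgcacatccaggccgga
Tubg1 (chromosome 11): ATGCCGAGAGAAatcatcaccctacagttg

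The 3 alpha genes shared all 4 opening codons. The 5 beta genes shown spelled the same 4 residues with 4 different runs of codons. Of 21602 protein-coding genes in the reference, 8 (0.0370%) opened with the 4 residues of Tubb5, and all 8 were beta-tubulin genes, 6 of them among the 10 described. The 4 residues of Tuba1b opened 9 genes, among them the 3 alpha genes described and the alpha-tubulin genes Tuba3a, Tuba3b, Tuba4a, Tuba8 and Tubal3. Those of Tubg1 opened 4 genes, Tubg1, Tubg2, the cyclin gene Ccne1 and the ribosomal protein gene Rplp0. Further into the transcripts the alpha genes stayed close to each other. Of all 150-base windows of the longest transcript, 54.7% of those of Tuba1a, 57.9% of Tuba1b and 46.7% of Tuba1c also occurred in another gene or pseudogene. The shares were 27.9% for Tubb2a, 20.1% for Tubb2b, 16.8% for Tubb4b, 0.907% for Tubg1 and 0 for Tubb3, Tubb5 and Tubb6. Reads from shared stretches could have been split or discarded in the counting, so the values of the alpha genes, Tubb2a, Tubb2b and Tubb4b are less certain than those of the other members. The predicted gene Gm49450 also overlaps 26.2% of the exon bases of Tuba1a and 22.7% of those of Tuba1b. It had 0 reads in all libraries, and the handling of reads in the overlap is not given in the sources used here.

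Libraries held 38092178 to 56522114 reads assigned to genes, and every tubulin gene had at least 1096 reads in every library. Lsg1 itself was measured at 136, 144 and 149 CPM (read counts scaled to a common library total with the TMM factors of edgeR) in whole-cell RNA with scramble siRNA and at 83.5, 96.7 and 114 CPM with Lsg1 siRNA. In ER-bound RNA it was at 143, 149 and 151 CPM with scramble siRNA against 35.4, 42.5 and 52.5 CPM with Lsg1 siRNA. The groups did not overlap in either fraction. By edgeR's quasi-likelihood test, with p-values adjusted by Benjamini-Hochberg over all genes, the fall was called in ER-bound RNA (log2 fold -1.77, adjusted p = 6.28e-08) and not in whole-cell RNA (log2 fold -0.55, SE 0.10, adjusted p = 0.245). The 10 mRNAs chosen as markers of translation at the ER were all called higher in ER-bound RNA with scramble siRNA, with a median log2 fold of 0.83. The 8 embryonic stem cell markers summed to 6552 to 6728 CPM in whole-cell and 7172 to 8039 CPM in ER-bound libraries. The neural markers summed to 31.7 to 35.9 CPM. Among them Sox1 (7.17 to 9.80 CPM), Elavl3 (8.24 to 9.34 CPM) and Map2 (6.20 to 9.54 CPM) were highest, and Dcx was at 0 to 0.0901 CPM. The 8 fibroblast markers summed to 27.7 to 30.7 CPM in whole-cell and 46.9 to 57.8 CPM in ER-bound libraries, most of it Thy1, with Lum at 0 in every library. The part of these markers in the results was not tested. Replicate 3 of ER-bound RNA with scramble siRNA and replicate 3 of whole-cell RNA with Lsg1 siRNA stood apart, with 18594.8 and 14888.4 CPM, without TMM factors, on 1 gene ID that had no name in the reference, against 1158 to 3991 in the other 10. Results that turned on these libraries are given without them.

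**Figure D1:**
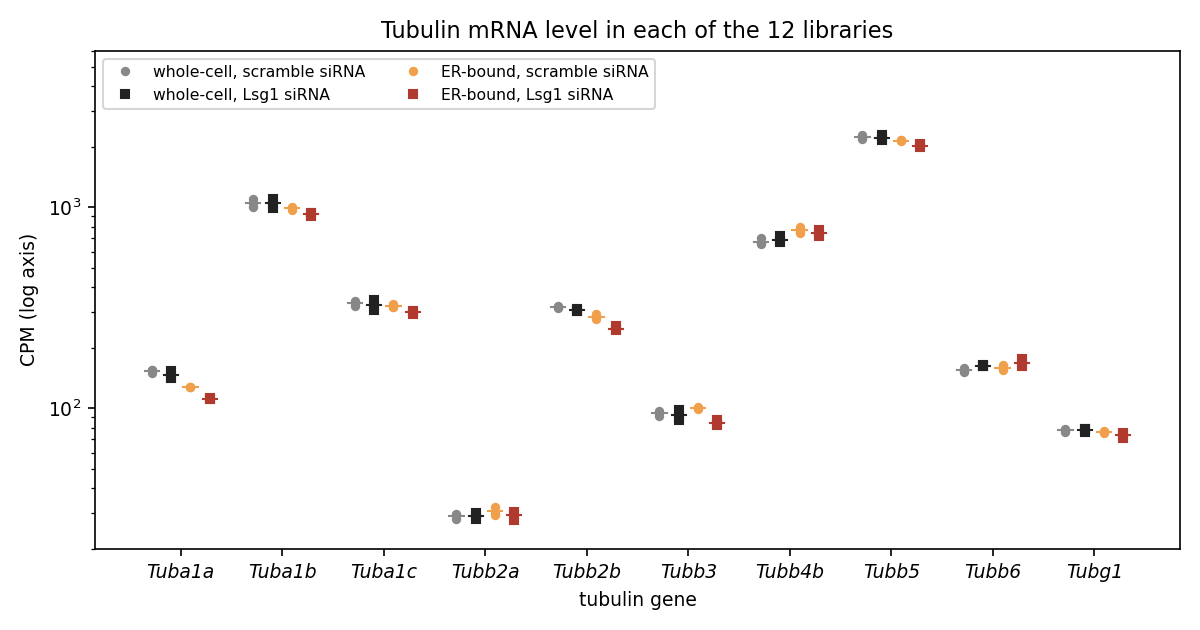
The level of each of the 10 tubulin genes in CPM (TMM-scaled, log axis) in each library, with 3 points per group and a short line at the group mean. Tuba1a and Tubb2b step down from whole-cell to ER-bound RNA and again with Lsg1 siRNA, the CPM of Tubb4b, before any GC and length correction, is higher in ER-bound RNA with scramble siRNA than in either whole-cell group, and the spread within groups is small beside the differences between genes.

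In whole-cell RNA with scramble siRNA, compared per length of the longest transcript (RPKM), Tubb5, a widely expressed beta-tubulin, led with 824, 845 and 864 RPKM. Tuba1b, a widely expressed alpha-tubulin, followed at 605 ± 27.8 RPKM (SD, n = 3), and Tubb4b, a broadly expressed beta-tubulin that is also abundant in cilia, at 423 ± 16.7 RPKM. Tuba1c stood at 168 ± 4.67 RPKM and Tubb2b at 146 ± 1.06 RPKM. Tubb6 (88.0 ± 1.85 RPKM) and Tuba1a (85.0 ± 1.80 RPKM) were close together. Tubb3, best known as a marker of neurons, was at 50.6 ± 1.46 RPKM, Tubg1 at 43.1 ± 0.875 RPKM and Tubb2a at 18.0 ± 0.520 RPKM. At each step in this order the 3 libraries of the gene above lay over the 3 of the gene below. With the length of all exons joined in place of the longest transcript, Tubb6 (63.5 RPKM) and Tuba1a (85.0 RPKM) changed places and the other ranks held.

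Among the 3 alpha genes, Tuba1b made up 70.5% ± 0.432 (SD, n = 3) of the summed RPKM in whole-cell RNA with scramble siRNA. Among the 6 beta genes, Tubb5 made up 53.8% ± 0.219 and Tubb4b 26.9% ± 0.412. In ER-bound RNA with scramble siRNA the share of Tubb5 was 51.1% ± 0.492 and that of Tubb4b 30.3% ± 0.556, and neither overlapped with its whole-cell values. The share of Tuba1a among the alpha genes was 9.92% ± 0.198 in whole-cell RNA and 8.83% ± 0.121 in ER-bound RNA with scramble siRNA, and 8.33% ± 0.138 in ER-bound RNA with Lsg1 siRNA. These shares do not depend on how libraries were scaled. Together the 10 genes took 0.499% ± 0.00942 of all assigned reads in whole-cell RNA with scramble siRNA, 0.493% ± 0.0118 with Lsg1 siRNA, 0.514% ± 0.00559 in ER-bound RNA with scramble siRNA and 0.485% ± 0.0107 with Lsg1 siRNA.

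ER-bound RNA was compared with whole-cell RNA to ask how each tubulin mRNA was represented on ribosomes labelled at the ER. With scramble siRNA, Tuba1a and Tubb2b were lower in ER-bound RNA, Tubb4b was higher (but lower, and not called, once counts were corrected for GC content and length), and the other members lay within 7% of their whole-cell level. In all, 1 member was called higher and 4 lower by edgeR at an adjusted p of 0.05, among 17702 genes of which 58.9% were called, 29.8% higher and 29.1% lower, so the members were not called more often than genes at large. Their median log2 fold was -0.03, against 0.03 over all tested genes. In bulk libraries a change in the number of cells and a change in RNA per cell cannot be told apart. A fold here is a share of one RNA pool over that in another, not an amount bound per cell.

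Among the alpha genes, Tuba1a, the isotype prominent in developing neurons, was at 149.7, 154 and 156 CPM in whole-cell RNA with scramble siRNA and at 128, 128 and 127 CPM in ER-bound RNA. All 3 ER-bound libraries lay below all 3 whole-cell libraries. It fell by 16.7% (log2 fold -0.26, SE 0.033, adjusted p = 1.75e-06, edgeR). Tuba1b was at 1006, 1055 and 1103 CPM in whole-cell and 996, 974 and 1007 CPM in ER-bound RNA. These groups overlapped, since the lowest whole-cell library was below the highest ER-bound library, and the call was borderline (log2 fold -0.09, adjusted p = 0.0487, edgeR). It was kept in 15 of 25 alternative settings. It was lost with library totals as the only scaling (log2 fold -0.0098, adjusted p = 0.810), with no low-count filter (adjusted p = 0.0841) and with the stricter filter (adjusted p = 0.0707). It was also lost when whole-cell scramble replicate 2 or 3, whole-cell Lsg1 replicate 2, ER-bound scramble replicate 1 or 2, or ER-bound Lsg1 replicate 1 or 2 was left out, with adjusted p of 0.0520 to 0.172. Tuba1c did not pass the test (333 ± 9.26 against 322 ± 5.35 CPM, SD, n = 3, log2 fold -0.05, adjusted p = 0.295, edgeR).

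Among the beta genes, Tubb2b was at 321, 318 and 317 CPM in whole-cell RNA with scramble siRNA and at 294, 278 and 286 CPM in ER-bound RNA. The groups were apart (log2 fold -0.16, SE 0.028, adjusted p = 9.90e-05, edgeR). Tubb4b went the other way, from 654, 666 and 705 CPM to 764, 746 and 797 CPM. All 3 ER-bound libraries lay above the whole-cell libraries (log2 fold 0.19, SE 0.036, adjusted p = 0.000236, edgeR), while with counts corrected for GC content and length this fold was -0.09 (adjusted p = 0.0634). Tubb5 was at 2183, 2238 and 2290.0 CPM against 2149, 2132 and 2158 CPM, a borderline call (log2 fold -0.06, SE 0.025, adjusted p = 0.0495, edgeR) that was kept in 14 of 25 settings and was 0.02 (adjusted p = 0.508) with library totals as the only scaling. It was also lost when any 1 of 8 libraries was left out (whole-cell scramble replicate 2 or 3, whole-cell Lsg1 replicate 2, any ER-bound scramble library, or ER-bound Lsg1 replicate 1 or 2), with adjusted p of 0.0568 to 0.119. Without both libraries that stood apart it was kept (log2 fold -0.08, adjusted p = 0.0454).

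Tubb3 was at 91.7, 94.6 and 97.2 CPM in whole-cell and 102, 99.2 and 101 CPM in ER-bound RNA with scramble siRNA. The groups did not overlap, and the difference just missed the threshold (log2 fold 0.09, adjusted p = 0.0712, edgeR). With the shared lysate as a block, which pairs each ER-bound library with the whole-cell RNA of its own lysate, Tubb3 was called higher (adjusted p = 0.0234), while with the GC and length correction it was called lower (log2 fold -0.19, adjusted p = 0.000286). It was also called higher with library totals (log2 fold 0.17, adjusted p = 0.000871) and with the stricter filter (adjusted p = 0.0414). Tubb2a (log2 fold 0.08, adjusted p = 0.151), Tubb6 (0.04, adjusted p = 0.308) and the gamma-tubulin gene Tubg1 (-0.02, adjusted p = 0.575) did not pass the test.

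**Figure D2:**
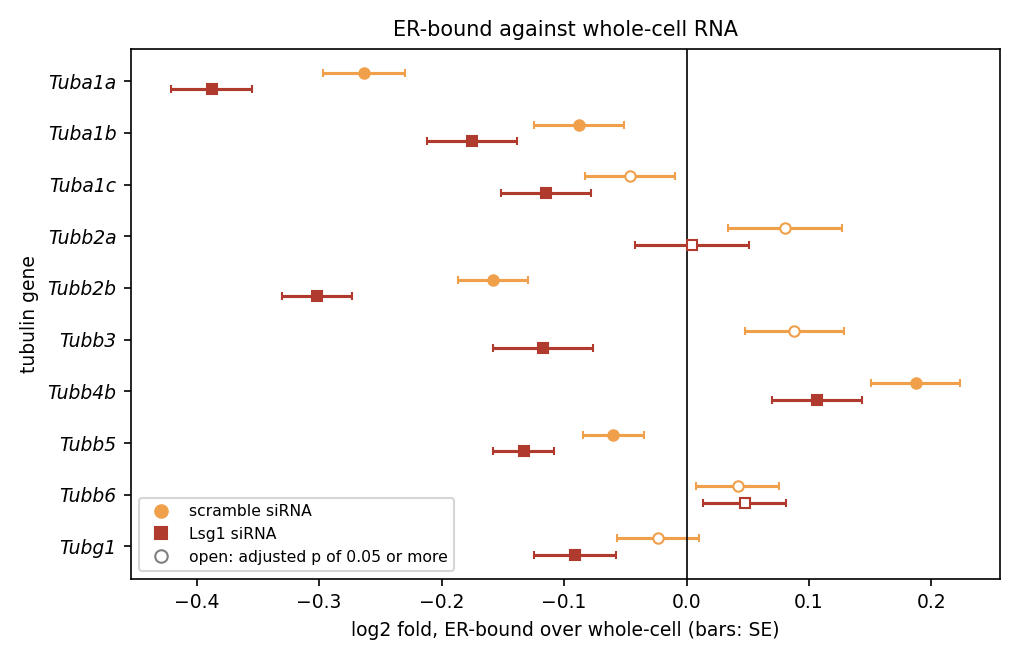
Log2 fold of ER-bound over whole-cell RNA for each tubulin gene, with scramble siRNA (circles) and with Lsg1 siRNA (squares), bars giving the SE of the edgeR fit and open symbols an adjusted p of 0.05 or more. The circles run from -0.26 (Tuba1a) to 0.19 (Tubb4b), and for 9 of the 10 genes the square lies to the left of the circle.

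With Lsg1 siRNA the comparison of ER-bound with whole-cell RNA was read from the same fit to all 12 libraries. Here 7 members were called lower and 1 higher, among 60.3% of all genes called (30.6% higher, 29.8% lower), and the median log2 fold of the members was -0.12 against 0.02 over all genes. Tuba1a was at 141, 143 and 154 CPM in whole-cell and at 111, 111 and 112 CPM in ER-bound RNA, so it fell by 23.6% (log2 fold -0.39, adjusted p = 1.12e-08, edgeR). Tubb2b was at 306, 305 and 310.4 CPM against 256, 245 and 247 CPM (log2 fold -0.30, adjusted p = 3.73e-08, edgeR). For both genes the groups were far apart beside the spread of their replicates, and both calls, like that of Tuba1b (log2 fold -0.18, adjusted p = 0.000460), were kept in all 25 settings tried. Tubb5 was lower by a log2 fold of -0.13 (adjusted p = 0.000157). Smaller falls were called for Tuba1c (-0.11, adjusted p = 0.0115), Tubb3 (-0.12, adjusted p = 0.0190) and Tubg1 (-0.09, adjusted p = 0.0254).

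With library totals as the only scaling, 4 of these calls were lost, those of Tubb5 (log2 fold -0.04, adjusted p = 0.100), Tuba1c (-0.03, adjusted p = 0.533), Tubb3 (-0.03, adjusted p = 0.546) and Tubg1 (-0.0029, adjusted p = 0.949). The smaller calls also leaned on single libraries. Without replicate 3 of the whole-cell Lsg1 libraries, which stood apart, the adjusted p was 0.0815 for Tuba1c, 0.128 for Tubb3 and 0.0711 for Tubg1, and the count of members called lower went from 7 to 4. With both libraries that stood apart left out it was 6, since Tubb3 was no longer called (adjusted p = 0.0626). The call of Tubb3 was also lost without ER-bound Lsg1 replicate 1 (adjusted p = 0.0530) or 2 (adjusted p = 0.0807), and that of Tubg1 without whole-cell Lsg1 replicate 2 (adjusted p = 0.0642) or ER-bound Lsg1 replicate 1 (adjusted p = 0.118). Tubb4b was again the member called higher, at 670.3, 678 and 720.5 CPM against 719, 736 and 773 CPM. These groups overlapped (log2 fold 0.11, adjusted p = 0.0177, edgeR), the call was kept in 13 of 25 settings, and the fold was -0.18 (adjusted p = 0.000854) with the GC and length correction. The call was lost when whole-cell scramble replicate 1 or 3, whole-cell Lsg1 replicate 1 or 2, ER-bound scramble replicate 2 or 3, or ER-bound Lsg1 replicate 2 or 3 was left out, with adjusted p of 0.0586 to 0.357. Tubb2a (log2 fold 0.0044, adjusted p = 0.944) and Tubb6 (0.05, adjusted p = 0.241) did not pass.

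The counts of members called between fractions depended on the scaling and on a correction for GC content and length. The members' GC content ran from 51.2% to 57.9% with a median of 55.2%, against a median of 50.0% over tested genes with a value, and the median length was 1802.5 against 2959 bases. With each library's trend with GC content and length removed, 9 of the 10 members were called lower in ER-bound RNA with scramble siRNA and 0 higher, with a median log2 fold of -0.28 against -0.03 over all genes. With Lsg1 siRNA all 10 were called lower (median -0.39 against -0.04). Over all 17702 genes this correction called 4542 higher and 5635 lower with scramble siRNA, and 4662 higher and 5955 lower with Lsg1 siRNA. With library totals as the only scaling, where the median of all genes moved to 0.11, the counts with scramble siRNA were 4 higher and 2 lower, beside 6438 higher and 4144 lower over all genes. Tuba1a and Tubb2b were called lower with either siRNA in all 25 settings, with log2 folds of -0.52 to -0.19 for Tuba1a and of -0.36 to -0.08 for Tubb2b with scramble siRNA. For the other 8 members the direction or the call with scramble siRNA depended on the setting.

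**Figure D3:**
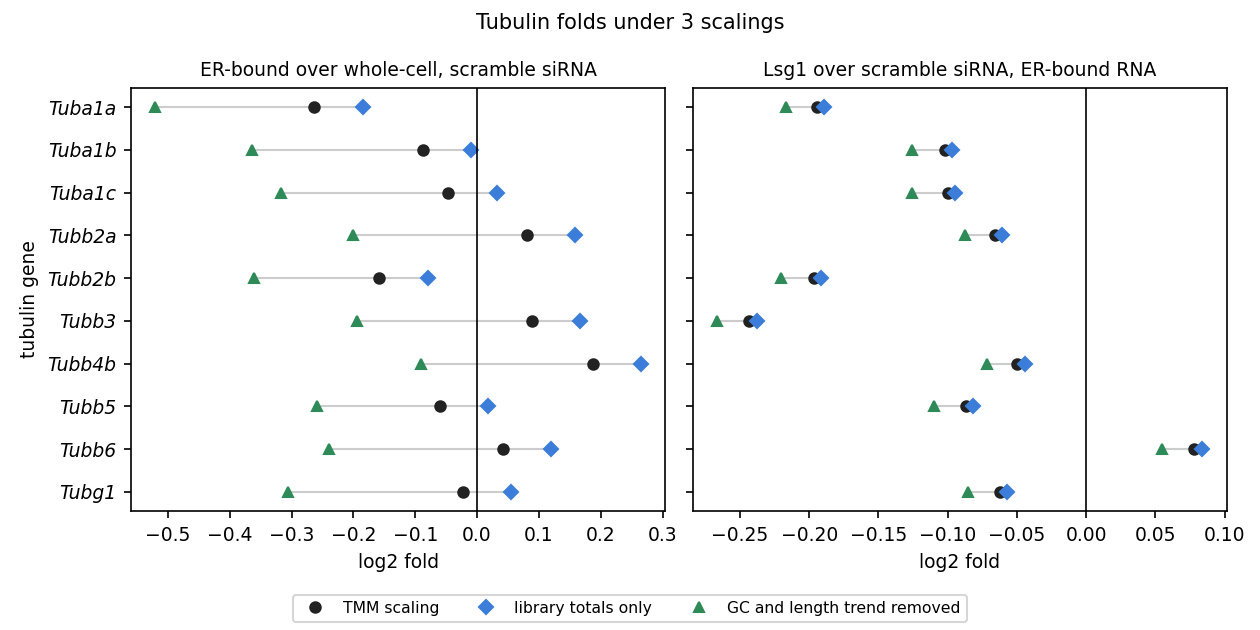
Log2 folds of the tubulin genes under TMM scaling (circles), with library totals only (diamonds) and with the GC and length trend of each library removed (triangles), for ER-bound over whole-cell RNA with scramble siRNA (left) and for Lsg1 over scramble siRNA in ER-bound RNA (right). In the left panel removing the trend puts all 10 genes below 0 (-0.09 for Tubb4b to -0.52 for Tuba1a), while in the right panel, which has a narrower axis, the 3 scalings nearly coincide.

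Lsg1 siRNA was compared with scramble siRNA within ER-bound RNA, where the fraction was the same in both groups. Tubb3, Tubb2b and Tuba1a fell, and 9 of the 10 members had a negative fold, against 46.6% of all tested genes. The 3 called members stand beside 4.01% of all genes called, 1.38% lower and 2.63% higher. The median log2 fold of the members was -0.09, against 0.01 over all tested genes. These folds use the same ER-bound libraries as the comparisons of fractions above, so the results are not independent of each other.

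Tubb3 was at 102, 99.2 and 101 CPM in ER-bound RNA with scramble siRNA and at 84.2, 82.5 and 87.9 CPM with Lsg1 siRNA. No library of one group reached the other, and Tubb3 fell by 15.5% (log2 fold -0.24, SE 0.041, adjusted p = 0.00229, edgeR). Only 6.90% of tested genes had a lower fold. Tubb2b went from 294, 278 and 286 CPM to 256, 245 and 247 CPM (log2 fold -0.20, SE 0.028, adjusted p = 0.000814, edgeR). Tuba1a went from 128, 128 and 127 CPM to 111, 111 and 112 CPM, and so fell by 12.6% (log2 fold -0.19, SE 0.033, adjusted p = 0.00305, edgeR). All 3 genes were lower in each same-numbered pair, and all 3 calls were kept in all 24 settings tried, which for Tubb3 gave log2 folds of -0.28 to -0.23. Tubb3 has no 150-base window in common with another gene.

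Of the other members, the most abundant, Tubb5, was at 2149, 2132 and 2158 CPM and at 1984, 2016 and 2064 CPM. Its groups did not overlap, but the adjusted p was 0.0618 (log2 fold -0.09, SE 0.025, edgeR). It was called lower in 8 of 24 settings, among them those without whole-cell scramble replicate 1 (adjusted p = 0.0497) or 3 (adjusted p = 0.0332) and without whole-cell Lsg1 replicate 3 (adjusted p = 0.0495). Tuba1b was at 996, 974 and 1007 CPM against 901, 934 and 939 CPM and did not pass the test (log2 fold -0.10, adjusted p = 0.141, edgeR). Tuba1c (log2 fold -0.10, adjusted p = 0.148), Tubg1 (-0.06, adjusted p = 0.367), Tubb2a (-0.07, adjusted p = 0.515) and Tubb4b (-0.05, adjusted p = 0.532) did not pass either. Tubb6 was the member with a positive fold, from 154, 159 and 165 CPM to 162, 167 and 175 CPM (log2 fold 0.08, adjusted p = 0.237). Same-numbered ER-bound libraries deviated together from their group means in all 3 pairs, and with the replicate number as a block 5 members were called lower, Tubb5 (adjusted p = 0.00829) and Tuba1b (adjusted p = 0.0232) joining the 3 above. That fit called 749 genes higher and 429 lower over all genes, against 465 and 245 without the block. With the GC and length correction the members called lower numbered 4, and the split over all genes was 366 higher and 355 lower. Stem cell markers moved in the same comparison. All 8 had a negative fold, 3 of them called (Nanog, Tfcp2l1 and Dppa5a), and their sum went from 7629 to 8039 CPM to 7172 to 7426 CPM. Their part in the result was not tested.

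**Figure D4:**
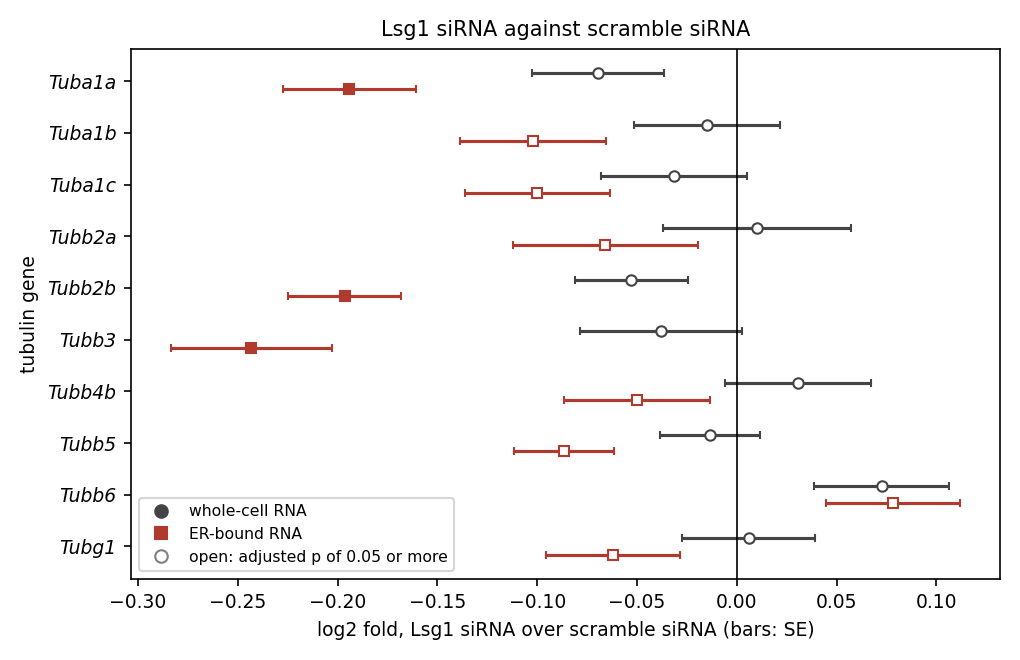
Log2 fold of Lsg1 over scramble siRNA for each tubulin gene in whole-cell RNA (circles) and in ER-bound RNA (squares), bars giving the SE of the edgeR fit and open symbols an adjusted p of 0.05 or more. The squares of Tuba1a, Tubb2b and Tubb3 are filled, and those of all members but Tubb6 lie below 0, while all circles are open and lie between -0.07 and 0.07.

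In whole-cell RNA, Lsg1 siRNA was compared with scramble siRNA to see whether the tubulin mRNA pool itself differed. No member was called, as no gene was (0 of 17702, or 0%), by edgeR. At an unadjusted p under 0.05 there were 4.13% of all genes and 1 member, Tubb6 (155 ± 3.25 against 163 ± 0.932 CPM, SD, n = 3, log2 fold 0.07, adjusted p = 1.000), and DESeq2 called 5 genes, none of them a member. The folds of the members ran from -0.07 (Tuba1a) to 0.07 (Tubb6) with a median of -0.01, and each had an SE of 0.025 to 0.047. Tubb3 was at 91.7, 94.6 and 97.2 CPM with scramble siRNA and at 90.2, 87.9 and 98.2 CPM with Lsg1 siRNA, and Tubb5 at 2237 ± 53.6 against 2216 ± 68.2 CPM (SD, n = 3). These groups overlapped. On simulated data, where few genes were changed, 64.2% of 1.2-fold changes were found in this comparison. That share need not hold for the real libraries, where even the siRNA target Lsg1 (log2 fold -0.55) was not called.

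Whether the effect of Lsg1 siRNA differed between the fractions was tested as an interaction. No member was called, while 0.0226% of all genes were (4 of 17702, 0.0113% higher and 0.0113% lower). The folds, ER-bound over whole-cell RNA with Lsg1 siRNA relative to that with scramble siRNA, were negative for 9 of 10 members with a median of -0.08, against 0.0043 over all genes. The most negative were Tubb3 (log2 -0.21, SE 0.057, adjusted p = 0.458), Tubb2b (-0.14, SE 0.040, adjusted p = 0.458) and Tuba1a (-0.12, SE 0.047, adjusted p = 0.632), all by edgeR. These 3 had an unadjusted p under 0.05. Of all tested genes, 2.71% had both such a p and a negative fold. The effect of the siRNA on these genes is therefore not shown to differ between the fractions. Of simulated 1.2-fold changes the interaction test found 25.4%, again with few genes changed in the simulation. The changed genes were drawn from genes at many levels, so this share need not hold for the tubulin genes.

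Of 10 further tubulin genes, 8 were tested, and Tuba4a and Tuba3a were the 2 called in any comparison. Over all genes 58.9% were called between fractions with scramble siRNA, and 4.01% for Lsg1 siRNA in ER-bound RNA. Tuba4a, an alpha-tubulin, was at 229, 232 and 239 CPM in whole-cell RNA with scramble siRNA and at 198, 192 and 201 CPM in ER-bound RNA (log2 fold -0.24, adjusted p = 1.31e-06, edgeR). With Lsg1 siRNA it was at 178, 182 and 181 CPM in ER-bound RNA, below all 3 scramble libraries (log2 fold -0.13, adjusted p = 0.0251, edgeR). That call was lost without ER-bound scramble replicate 3 (adjusted p = 0.0788) and without any 1 of the 3 ER-bound Lsg1 libraries. Tuba3a, whose product is best known from testis, was at 54.4, 58.3 and 59.1 CPM in whole-cell and 51.0, 49.4 and 49.5 CPM in ER-bound RNA with scramble siRNA (log2 fold -0.20, adjusted p = 0.000124, edgeR). It fell further to 43.7, 45.4 and 43.6 CPM with Lsg1 siRNA (log2 fold -0.18, adjusted p = 0.0106, edgeR), a call kept in all 24 settings. Tube1, encoding epsilon-tubulin of the centriole, was at 20.1 ± 0.532 against 19.1 ± 0.512 CPM (SD, n = 3) and did not pass. Tubb1 and Tubal3 were near 0 in all libraries and were not tested.

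Before the GC and length correction, the genes that fold tubulin did not all go the same way between fractions. Of the 9 CCT chaperonin genes, which encode the ring that folds tubulin and actin, 8 were called lower in ER-bound RNA with scramble siRNA. Their median log2 fold was -0.32, and over all genes 29.1% were called lower and 29.8% higher. The count was also 8 with library totals and with the GC and length correction. Cct8 (log2 fold -0.62), Cct6a (-0.42) and Cct4 (-0.34) had the smallest p-values. Of the 9 genes for prefoldin, which hands tubulin to CCT, and for CCT co-chaperones, 5 were called higher and 1 lower (median 0.20). The smallest p-values were those of Pfdn6 (0.44), Txndc9 (0.22) and Pfdn5 (0.20, but -0.07 with the GC and length correction). Of 7 tubulin cofactor genes, 3 were called higher and 2 lower. Tbcd, whose product holds beta-tubulin during dimer assembly, was lower (-0.73), while Arl2 (0.21) and Tbcb (0.14) were higher, both of which turned negative with the correction (-0.04 and -0.15). With Lsg1 siRNA in ER-bound RNA none of these 25 genes was called by edgeR, where 4.01% of all genes were called.

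Of the 12 autoregulation genes, 7 were called lower and 2 higher in ER-bound RNA with scramble siRNA (median log2 fold -0.17). This and the further list counts in this comparison stand beside 29.8% of all genes called higher and 29.1% lower. All are from the fit without the GC and length correction. Ttc5 (-0.22) and Scaper (-0.46) were among the lower. Cnot1, the scaffold of CCR4-NOT, was at 579 ± 23.9 CPM in whole-cell and 175 ± 54.8 CPM in ER-bound RNA (SD, n = 3). Its log2 fold was -1.73 (SE 0.14), with a wide spread in ER-bound RNA. Cnot10 was lower by -0.38 and Cnot6 by -0.39, the last of which was 0.02 with the GC and length correction. With Lsg1 siRNA, 1 of the 12 was called in ER-bound RNA, the deadenylase gene Cnot7 (-0.16, adjusted p = 0.00663, edgeR). Over all genes 4.01% were called there. Of the 11 genes of the gamma-tubulin ring complex and its recruiters, 9 were called lower and 1 higher (median -0.47). Tubg1 itself was not called in that fit, but was called lower with the GC and length correction (log2 fold -0.31, adjusted p = 1.16e-07, edgeR). The smallest p-values were those of Akap9 (-1.87), Cdk5rap2 (-1.09) and Pcnt (-1.46), which encode large centrosomal scaffolds. Of the 8 augmin genes, whose products help to start microtubule branches, 4 were lower and 1 higher. By p-value the first 3 were Haus6 (-0.84), Haus3 (-0.35, but 0.13 with the correction) and Haus2 (-0.25).

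**Figure D5:**
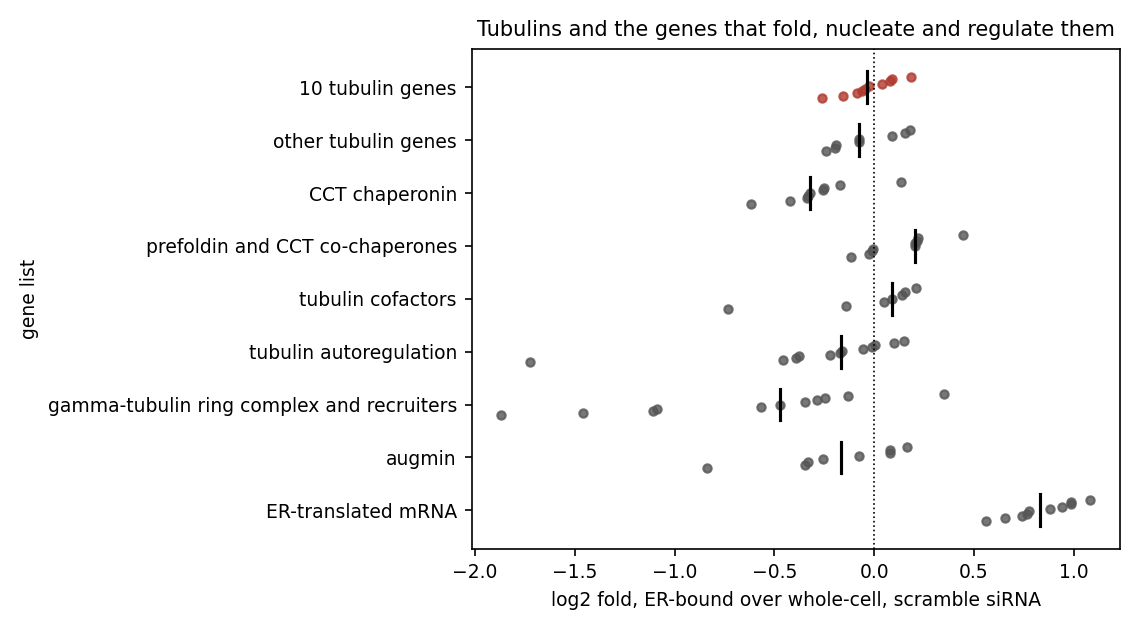
Log2 fold of ER-bound over whole-cell RNA with scramble siRNA for each tested gene of the tubulin lists (points) with the median of each list (black bar). The 10 tubulin genes lie close to 0 (median -0.03), the CCT genes have a median of -0.32, the gamma-tubulin ring complex list reaches -1.87, and the mRNAs translated at the ER lie at 0.56 to 1.08.

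Of 23 tested genes for tubulin-modifying enzymes, 6 were called higher and 7 lower in ER-bound RNA with scramble siRNA (median log2 fold -0.0037). These counts are near the shares over all genes, 29.8% higher and 29.1% lower. The glutamylase gene Ttll4 (-0.59), the deacetylase gene Hdac6 (-0.59) and Ttll12 (-0.48) had the smallest p-values. Of 10 stathmin and severing genes, 5 were called higher and 3 lower. Stmn2, encoding a stathmin that binds tubulin dimers, was at 449.9, 451 and 448 CPM in whole-cell and 613, 582 and 586 CPM in ER-bound RNA, with no overlap (log2 fold 0.40). Stmn3 was higher (0.65) and the severing gene Fignl1 lower (-0.40). Stmn1 was called lower with Lsg1 siRNA in ER-bound RNA (-0.11, adjusted p = 0.0467, edgeR), a call lost in 13 of 24 settings, among them those without ER-bound scramble replicate 3 (adjusted p = 0.0504). Of 5 tested actin genes, 2 were called lower, Acta2 (1.41 to 3.11 CPM per library) and Acta1 (0.702 to 1.94 CPM), while Actb was at 1828 ± 63.0 against 1739 ± 35.5 CPM (SD, n = 3, log2 fold -0.07, adjusted p = 0.0850).

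The genes whose pattern over the 12 libraries was most like that of Tubb5 were found by the root mean square difference of centred log2 CPM, over 10636 genes with a mean of at least 5 CPM. Stip1, a co-chaperone gene, was nearest (0.0149), followed by the glycolytic gene Eno1 (0.0202), the mitochondrial chaperonin gene Hspd1 (0.0203), Tigar (0.0204) and Slc25a5 (0.0220), against a median of 0.159 over all genes. For Tuba1b they were Rbmxl2 (0.0221), the co-chaperone gene Fkbp4 (0.0258), Vps53 (0.0290), Enoph1 (0.0292) and Grb7 (0.0310), with a median of 0.166. Tubb5 and Tuba1b were 0.0280 from each other, Tuba1c was 0.0259 and Tubg1 0.0280 from Tubb5, while Tuba1a was at 0.123 from it. The 12 points are 4 groups of 3 libraries, so a small difference mostly says that the group means moved little and alike.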

How the data were processed

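The authors deposited raw counts per gene for each library, made per the submitters' processing notes with STAR 2.7.9a on GRCm39 and HTSeq 0.11.2. Neither the strand setting of the counting nor its annotation release is given in the sources used here. The 5 summary lines per table stayed out of totals and tests: reads without a feature made up 2.65% to 5.26%, multi-mapped reads 6.09% to 8.23% and ambiguous reads 0.970% to 1.16%. Names, lengths and GC content came from GENCODE M21 on GRCm38, matched by gene ID without version for 52083 IDs (94.0%). GC content was known for 99.7% of tested genes.

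Counts were filtered with filterByExpr (17702 genes), scaled by TMM and passed to the quasi-likelihood F-test of edgeR 4.0.16 in R 4.3.3, with 1 mean per group over all 12 libraries, which left 8 residual degrees of freedom at a biological coefficient of variation of 4.42%. P-values were adjusted by Benjamini-Hochberg over all genes, threshold 0.05. CPM values use TMM-scaled totals, and n = 3 is 3 libraries. No pair of replicates was identical. Tried as alternatives were size factors from DESeq2, scaling to library totals, a fit without the low-count filter or with a stricter one (2 CPM in 3 libraries), DESeq2 1.42.0, limma-voom (limma 3.58.1), only the groups compared, blocks by replicate number or shared lysate, removal of mitochondrial and ribosomal protein genes, a GC and length offset (splines, 5 degrees of freedom) with and without a block, and leaving out each library or both that stood apart.

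Fractions are paired by lysate, per the series' design text. Deviations of same-numbered libraries correlated at 0.376, 0.125 and 0.322 in ER-bound RNA, which was taken as pairing, and at 0.277, -0.00962 and 0.312 in whole-cell RNA, which was not. Members and lists were chosen with earlier results of these data known. Named genes were all members, the up to 3 genes of each list with the smallest p between fractions with scramble siRNA, and the 5 nearest in pattern to Tubb5 and Tuba1b. Ttc5, Scaper, Cnot7, Stmn1, Tubb1, Tubal3, Sox1, Elavl3, Map2 and the 3 called stem cell markers were named after their values were seen. On simulated counts, 88.1% of 1.5-fold and 55.2% of 1.2-fold changes were found between fractions with scramble siRNA. For Lsg1 siRNA in ER-bound RNA these were 95.5% and 64.2%. Few genes were changed in the simulation, while 58.9% of real genes were called between fractions with scramble siRNA. The simulated shares therefore need not hold for the real libraries.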

Additional observations from a re-analysis of the deposited data

How the results depend on the processing

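Over the 10 members and 5 comparisons, 349 alternative values of called results kept direction and call, 43 kept the direction only and 5 reversed. Of those for results not called, 745 kept their direction and stayed uncalled, 23 kept it and were called, and 55 reversed. Some of the reversed values were also called, as for Tubb6 between fractions with scramble siRNA under the offset (log2 fold -0.24, adjusted p = 7.58e-06, edgeR). The causes were not tested. With scramble siRNA, members called higher and lower in ER-bound RNA numbered 1 and 4, against 4 and 2 with library totals, 1 and 2 with no filter, 2 and 2 with the stricter filter, 0 and 9 with the GC and length offset, and 2 higher with either replicate block (0 and 10 with the number block and offset together). With Lsg1 siRNA they were 1 and 7, against 2 and 3 with library totals, 0 higher with DESeq2 size factors, DESeq2 or the offset (also with the block), and 10 lower with the offset. Members called lower by Lsg1 siRNA in ER-bound RNA numbered 3, against 5 with the replicate block and 6 with block and offset. Over all genes, block and offset together called 618 higher and 634 lower there, and 4718 higher and 5843 lower between fractions with scramble siRNA. Leaving out single libraries gave 2 to 4 lower with scramble siRNA, 4 to 7 lower and 0 to 1 higher with Lsg1 siRNA, and 3 to 4 lower for the siRNA in ER-bound RNA. The replicate blocks changed no other call of a member than those of Tubb3 between fractions with scramble siRNA and of Tubb5 and Tuba1b for the siRNA in ER-bound RNA.

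Folds that reversed between fractions with scramble siRNA under the offset, without and with the number block, were Tubb6 (-0.24 both), Tubb4b (-0.091 both), Tubb2a (-0.20 both), Tubb3 (-0.19 both), Pfdn5 (-0.070 both), Arl2 (-0.037 and -0.038), Tbcb (-0.15 both), Cnot6 (0.023 both) and Haus3 (0.13 both). With library totals they were Tubb5 (0.018), Tubg1 (0.055), Tuba1c (0.032), Tube1 (0.0016) and Actb (0.0061). With Lsg1 siRNA the offset, without and with block, gave -0.25 for Tubb6, -0.18 for Tubb4b and -0.28 for Tubb2a. Tubb2a was also -0.0096 with DESeq2 size factors, -0.0057 with no filter, -0.0094 with DESeq2, -0.0084 with only the groups compared and -0.047 without both libraries that stood apart. Left-out libraries gave -0.013 to 0.066 for Tubb6 and -0.036 to 0.036 for Tubb2a.

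For Lsg1 siRNA in whole-cell RNA, Tubg1 was -0.0069 with the offset (both ways) and -0.0085 without both libraries, Tubb4b -0.0052 without both, and Tubb2a -0.0056 with the offset (both ways). Left-out libraries gave -0.044 to 0.0093 for Tubb5, -0.063 to 0.024 for Tuba1b, -0.017 to 0.021 for Tubg1, -0.0092 to 0.068 for Tubb4b, -0.086 to 0.0038 for Tuba1c and -0.022 to 0.032 for Tubb2a. The interaction of Tubb6 was -0.014 with no filter, -0.0054 and -0.0061 with the offset without and with block, and -0.038 to 0.028 with libraries left out. In the simulation, where few genes were changed, 1.2-fold changes were often missed, while smaller folds of real genes were called between fractions.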
